A study of Mus musculus with 6 samples.

Results

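The sarcomere and Z-disc genes described here are 35 genes for the contractile unit of heart muscle and for the structures that anchor it. They comprise 10 genes of the thin filament, 6 of the thick filament, titin and the M-band, 10 of the Z-disc, 4 of the desmin network, costamere and chaperones, and 5 for enzymes of sarcomere assembly and turnover. They were taken by gene symbol from the 19505 genes with a symbol on the array, and the list was chosen with earlier results of these data known. All 35 were measured, each by 1 of the 22206 probe sets tested. In hearts that lacked *Col1a2*, none of the 35 differed from control hearts at an unadjusted p under 0.05, beside 5.45% of all probe sets. For 28 of them the 95% interval of the difference lay within a fold change of 1.5 either way, against 43.0% of all probe sets. That share was 92.4% in the top 1% of signals, where 16 of the 35 genes lay.

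In the sarcomere, actin-based thin filaments anchored at the Z-disc slide along myosin-based thick filaments, and calcium starts the contraction by binding troponin on the thin filament. Titin runs as a spring from the Z-disc to the M-band at the centre of the thick filaments. The Z-disc also holds proteins that respond to stretch, and desmin filaments and costameres tie it to the cell membrane and, through it, to the collagen matrix. Several sarcomere proteins have a fetal and an adult form in the mouse heart, and a return of fetal forms is known from hearts under load.

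Hearts of 3 *Col1a2*-/- mice and 3 *Col1a2*+/- mice were taken at 2 months of age, and the total RNA of each was hybridised to its own Clariom S array (Affymetrix). *Col1a2* encodes the α2 chain of type I collagen. Both groups carried a germline knockout first allele on the C57/BL6 background, on both copies of the gene in *Col1a2*-/- mice and on 1 copy in *Col1a2*+/- mice, with no Cre and no treatment named for these hearts. The *Col1a2*+/- controls are therefore not wild type, and wild-type hearts were not analysed here. The allele holds a large inserted cassette in every cell, and the study names altered expression of neighboring genes as a possible limit of the model. The tissue is whole heart in the labels and ventricles in the methods. In such bulk RNA, fewer cells of a type and less RNA per cell cannot be told apart.

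Hearts are named by their animal numbers, which were 2767, 2770 and 3200 for *Col1a2*-/- and 2769, 3201 and 3294 for *Col1a2*+/-. The numbers fall into a first series (2767, 2770 and 2769) and a second series (3200, 3201 and 3294), and the labels do not say what the numbers stand for. *Col1a2* itself had a log2 signal of 6.86, 6.84 and 6.48 in *Col1a2*-/- hearts, against 9.47, 9.06 and 9.18 in *Col1a2*+/- hearts, so every heart matched its label (log2 difference -2.51, SE 0.19, limma adjusted p = 0.00626). All 15 cardiomyocyte markers lay above the limit for dim signals, a log2 signal of 5.97, and their mean was 16.39 to 16.47 in *Col1a2*-/- hearts and 16.43 to 16.54 in *Col1a2*+/- hearts. *Col1a2*+/- heart 3294 stood apart. It was the only heart with the Y-linked gene *Uty* near background (2.65, against 11.58 to 11.90 in the others), 9 of 10 atrial markers were highest in it, and their mean was 12.21 there, against 9.47 to 10.12 in *Col1a2*-/- hearts and 8.70 and 9.07 in the other *Col1a2*+/- hearts. The brown fat gene *Ucp1* was at 8.33 in heart 3294, against 3.60 to 4.30 in the other hearts. The part of these features in the results was not tested, and values without heart 3294 are given for some genes and, over all 35, as counts.

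Promoters of the genes on which the results turn are shown first, because sarcomere genes are known to share binding sequences for serum response factor (the CArG box), MEF2 factors (the MEF2 box) and TEAD factors (the M-CAT element, CATTCC). RefSeq promoters of build GRCm38.p6 were at hand for 29 of the 35 genes, and the 250 bases before the start were searched on both strands. *Lmod3*, *Trim55*, *Nexn*, *Myom2*, *Cryab* and *Tcap* are not among the 29. A CArG box was found in 6 of 29 (20.7%), namely *Actc1*, *Fhl2*, *Ldb3*, *Myl3*, *Myom1* and *Nebl*, against 1.62% of 27025 genes in the table. A MEF2 box was found in 4 (13.8%, against 3.42%), the M-CAT element in 10 (34.5%, against 14.4%) and a TATAAA sequence, which can lie inside a MEF2 box, in 6 (20.7%, against 14.3%). These matches describe letters only and are not binding sites. The promoters of the cardiac α-actin gene *Actc1* (chr2:114052876-114053125, minus strand), the ventricular essential light chain gene *Myl3* (chr9:110763428-110763677, plus strand), the titin gene *Ttn* (chr2:76982548-76982797, minus strand) and, for comparison, the skeletal α-actin gene *Acta1* (chr8:123894776-123895025, minus strand), which is not a member, are printed from 5′ to 3′, with CArG, MEF2, M-CAT and TATAAA matches in capitals.
Actc1: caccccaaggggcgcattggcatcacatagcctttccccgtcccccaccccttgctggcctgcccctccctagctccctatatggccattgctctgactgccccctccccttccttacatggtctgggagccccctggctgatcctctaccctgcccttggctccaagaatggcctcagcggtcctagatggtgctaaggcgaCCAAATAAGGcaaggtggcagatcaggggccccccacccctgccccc
Myl3: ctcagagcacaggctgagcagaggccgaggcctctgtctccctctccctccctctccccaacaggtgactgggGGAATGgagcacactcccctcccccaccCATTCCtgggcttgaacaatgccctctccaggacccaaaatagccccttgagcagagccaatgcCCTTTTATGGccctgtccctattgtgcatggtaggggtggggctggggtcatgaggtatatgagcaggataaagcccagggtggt
Ttn: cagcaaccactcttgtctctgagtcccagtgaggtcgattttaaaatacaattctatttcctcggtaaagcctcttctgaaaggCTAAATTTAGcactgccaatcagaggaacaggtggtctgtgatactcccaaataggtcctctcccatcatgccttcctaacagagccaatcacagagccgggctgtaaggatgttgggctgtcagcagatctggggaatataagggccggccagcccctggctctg
Acta1: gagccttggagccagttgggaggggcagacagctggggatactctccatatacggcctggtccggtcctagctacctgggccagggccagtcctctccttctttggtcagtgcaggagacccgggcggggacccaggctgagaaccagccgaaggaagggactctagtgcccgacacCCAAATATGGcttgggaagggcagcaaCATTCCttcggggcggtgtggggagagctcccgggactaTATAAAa
The CArG box of *Actc1* began 47 bases before the start, that of *Myl3* 85 bases before it and that of *Acta1* 73 bases before it. *Myl3* also held the M-CAT element 177 and 149 bases before the start, the farther one on the other strand, and *Acta1* held it 46 bases before the start. The match of *Ttn* was a MEF2 box 166 bases before the start.

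To ask whether loss of *Col1a2* changed the RNA of the contractile apparatus, the genotypes were compared with limma over all probe sets tested. Of the 35 genes, 0 had a higher and 0 a lower signal in *Col1a2*-/- hearts at an unadjusted p under 0.05, beside 2.67% and 2.79% of all probe sets (5.45% in either direction). None passed after adjustment, where 0.00450% of all probe sets did, which is *Col1a2* alone. The adjusted p of the 35 genes lay between 0.920 and 1.00. The *Col1a2*-/- hearts all lay above the *Col1a2*+/- hearts in 2 genes, *Myl3* and *Nexn*, and all below them in 0, where the shares of all probe sets were 5.13% and 5.47%. The log2 difference was positive in 19 genes and negative in 16 and ran from -0.35 for *Pdlim3* to 0.38 for *Nexn*, with a median of 0.016, against -0.00062 over all probe sets. Within the first and the second series of animal numbers the median was 0.064 and 0.026, and without heart 3294 it was 0.042. The mean of the 35 log2 signals was 15.50 to 15.52 in *Col1a2*-/- hearts and 15.45 to 15.54 in *Col1a2*+/- hearts. The range of *Col1a2*-/- hearts lay inside that of *Col1a2*+/- hearts only through heart 3294, which had the highest mean (15.54). *Col1a2*+/- hearts 2769 and 3201, at 15.45 each, lay below all *Col1a2*-/- hearts.

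A p that misses a threshold does not show that values were equal, and the intervals give the size of a change that the arrays could still hold. The 95% interval lay within a fold change of 1.5 either way in 28 of the 35 genes (80.0%), against 43.0% of all probe sets and 51.7% of the 12816 above the limit for dim signals. The plot of the differences with their intervals shows this for every gene. Under the alternatives described below, the count of 28 lay between 19 and 31. The interval reached beyond that fold change for *Tnni1*, *Mypn*, *Nexn*, *Pdlim3*, *Nrap*, *Smyd1* and *Unc45b*. Signals of the 35 genes were mostly high. Of the 35, 16 lay in the top 1% of all probe sets, where the interval was within the limit for 206 of 223 probe sets (92.4%). The share was 16 of 16 for members in that top 1% and 12 of 19 for the others. The values of the table end at 19.93, and *Tpm1*, the member with the highest signal, had a mean of 19.03. Whether signals this close to the end of the scale understate a difference was not tested.

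**Figure D1:**
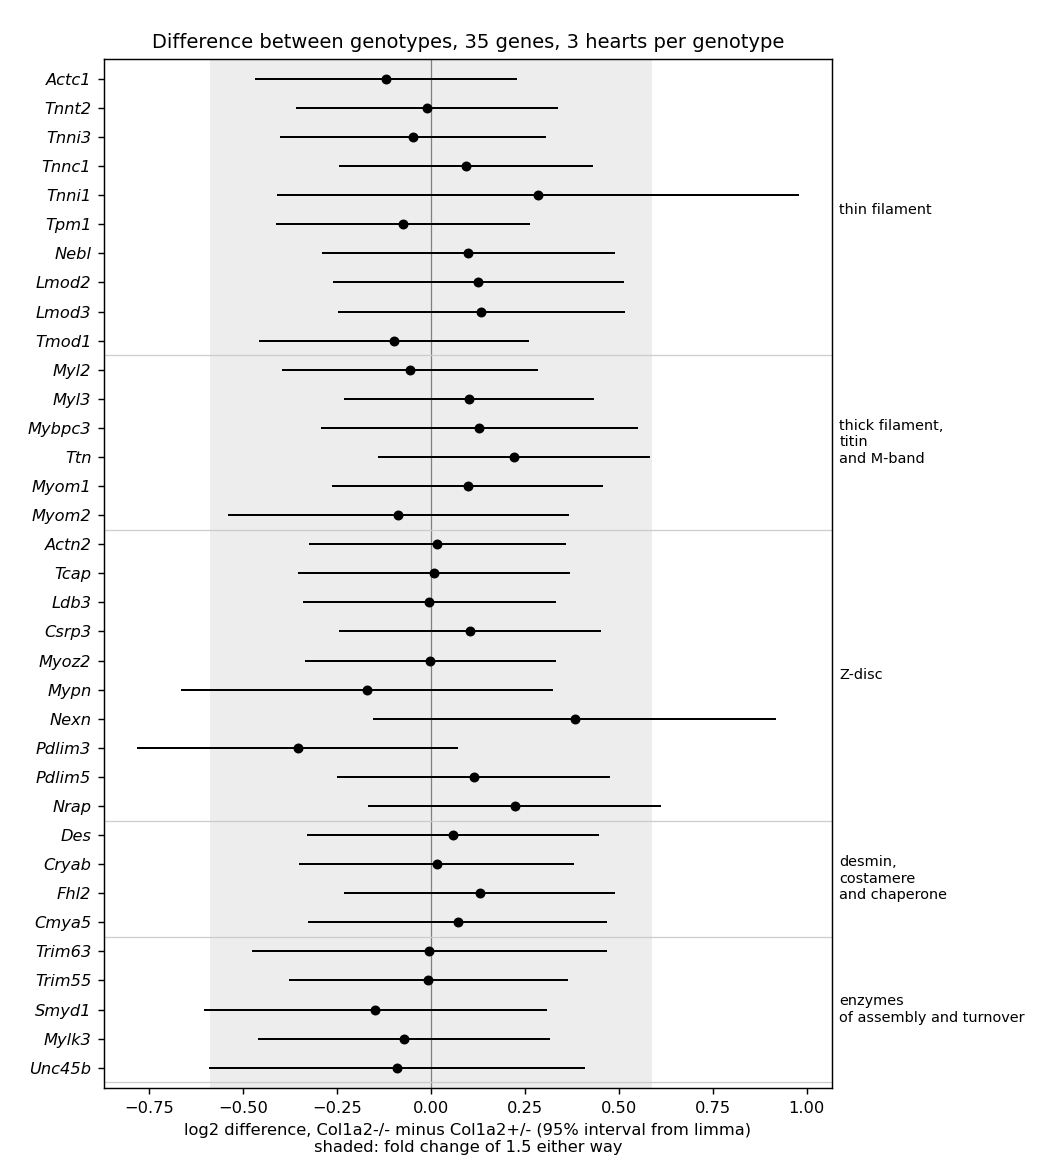
Difference in log2 signal between *Col1a2*-/- and *Col1a2*+/- hearts for each of the 35 genes, in role groups, with the 95% interval from limma (3 hearts per genotype) and a shaded band for a fold change of 1.5 either way. The points run from -0.35 (*Pdlim3*) to 0.38 (*Nexn*), every interval includes 0, and 28 intervals stay within the band.

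Among the 10 thin filament genes, 5 were positive and 5 negative, with a median log2 difference of 0.041, and none passed. *Actc1*, which encodes cardiac α-actin, the main actin of the adult heart, had a log2 signal of 18.90, 18.75 and 18.80 in *Col1a2*-/- hearts, against 19.00, 18.82 and 18.99 in *Col1a2*+/- hearts. The genotypes overlapped, and the log2 difference was -0.12 (95% interval -0.47 to 0.23, adjusted p = 0.958 by limma). *Tnni3*, the gene of cardiac troponin I, which blocks contraction until calcium binds, had 18.32, 18.15 and 18.31 in *Col1a2*-/- hearts, against 18.35, 18.18 and 18.39 in *Col1a2*+/- hearts. Its log2 difference of -0.047 (interval -0.40 to 0.31), which was 0.016 after quantile normalization, was smaller than the SD within either genotype (0.10 in *Col1a2*-/- and 0.11 in *Col1a2*+/- hearts).

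*Tnni1* encodes the slow skeletal troponin I that the fetal heart uses before *Tnni3* takes over, and it was the only member below the limit for dim signals. Its log2 signal was 4.08, 5.20 and 4.98 in *Col1a2*-/- hearts, against 4.89, 4.21 and 4.29 in *Col1a2*+/- hearts. Heart 2767 was the lowest of all 6 and the other *Col1a2*-/- hearts were the highest. The difference of 0.29 (interval -0.41 to 0.98) was -0.26 within the first series and 0.73 within the second. Without heart 2767 it was 0.62, with an unadjusted p of 0.0373 and an adjusted p of 0.945 by limma.

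The leiomodins, which nucleate and lengthen actin filaments, overlapped between genotypes as well. *Lmod2*, the main leiomodin of the heart, had 16.17, 16.24 and 16.56 in *Col1a2*-/- hearts, against 16.13, 16.31 and 16.16 in *Col1a2*+/- hearts (log2 difference 0.13, interval -0.26 to 0.51). *Lmod3*, known for its role in skeletal muscle thin filaments, had 12.22, 12.13 and 12.16 in *Col1a2*-/- hearts, against 12.02, 12.25 and 11.83 in *Col1a2*+/- hearts (0.13, interval -0.25 to 0.52, and 0.031 without heart 3294). Heart 3200 was the highest for *Lmod2*, whereas for *Lmod3* heart 3201 was the highest and heart 3294 the lowest. The remaining thin filament genes had log2 differences between -0.10 and 0.10. They are the cardiac troponin T gene *Tnnt2* (-0.011), the troponin C gene *Tnnc1* (0.09), whose product binds the calcium, the tropomyosin gene *Tpm1* (-0.07), the nebulette gene *Nebl* (0.10) and *Tmod1* (-0.10), which encodes the cap of the pointed filament end.

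The 6 genes of the thick filament, titin and the M-band had a median log2 difference of 0.10, with 4 positive and 2 negative. *Ttn* had a log2 signal of 17.05, 17.29 and 17.35 in *Col1a2*-/- hearts, against 17.06, 17.01 and 16.96 in *Col1a2*+/- hearts. Hearts 2770 and 3200 lay above all *Col1a2*+/- hearts and heart 2767 did not. *Ttn* averaged 17.23 ± 0.16 in *Col1a2*-/- hearts, against 17.01 ± 0.05 in *Col1a2*+/- hearts (SD, n = 3 each), a log2 difference of 0.22 (SE 0.16, interval -0.14 to 0.58, adjusted p = 0.937 by limma). The difference was 0.11 within the first series, 0.37 within the second and 0.20 without heart 3294. With a trend and robust prior in limma the unadjusted p was 0.0343 and the adjusted p 0.903. One probe set reports on the gene as a whole here and does not separate the titin isoforms.

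*Myl3*, named after its values were seen, was the member with the smallest spread within genotypes (SD 0.03). Its log2 signal was 17.94, 17.90 and 17.93 in *Col1a2*-/- hearts, against 17.85, 17.79 and 17.81 in *Col1a2*+/- hearts. All *Col1a2*-/- hearts lay above all *Col1a2*+/- hearts, by a log2 difference of 0.10 (interval -0.23 to 0.43, adjusted p = 0.959 by limma). The methods' t-test, which takes the spread of this probe set alone, gave it an unadjusted p of 0.0110 and an adjusted p of 0.887, whereas limma draws a spread this small toward that of all probe sets. The size was a fold change of 1.07, and the difference was 0.06 and 0.13 within the first and the second series.

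*Myl2*, the gene of the ventricular regulatory light chain that sets the myosin heads, had 18.89, 18.94 and 18.93 in *Col1a2*-/- hearts, against 19.02, 18.87 and 19.03 in *Col1a2*+/- hearts. The log2 difference was -0.06 (interval -0.40 to 0.28), and the *Col1a2*-/- values lay between those of the *Col1a2*+/- hearts. *Mybpc3*, which encodes the cardiac myosin binding protein C of the thick filament, averaged 16.42 ± 0.20 in *Col1a2*-/- hearts, against 16.29 ± 0.22 in *Col1a2*+/- hearts (SD, n = 3 each). Its log2 difference of 0.13 was 0.38 within the first series, -0.17 within the second and 0.26 without heart 3294. The myomesin genes *Myom1* and *Myom2*, whose products cross-link the thick filaments at the M-band, had log2 differences of 0.10 and -0.09.

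The 10 Z-disc genes held both ends of the range, with 6 positive, 4 negative and a median of 0.013. *Pdlim3* encodes a PDZ-LIM protein that binds α-actinin at the Z-disc. It had a log2 signal of 11.17, 11.08 and 11.29 in *Col1a2*-/- hearts, against 11.52, 11.25 and 11.83 in *Col1a2*+/- hearts. Hearts 3200 and 3201 crossed by a small margin, and the highest value was that of heart 3294. *Pdlim3* averaged 11.18 ± 0.11 in *Col1a2*-/- hearts, against 11.54 ± 0.29 in *Col1a2*+/- hearts (SD, n = 3 each). Its log2 difference of -0.35 (SE 0.19, interval -0.78 to 0.07) had the smallest p of the 35 genes, an unadjusted 0.0938 and an adjusted 0.920 by limma. The difference was -0.40 within the first series and -0.25 within the second. It was -0.20 without heart 3294 and -0.50 without heart 3201, where the unadjusted p was 0.0340 and the adjusted p 0.906.

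*Nexn* encodes nexilin, an actin-binding protein of the Z-disc that is needed for its stability. It had a log2 signal of 15.50, 15.61 and 15.54 in *Col1a2*-/- hearts, against 15.50, 15.39 and 14.61 in *Col1a2*+/- hearts. The lowest *Col1a2*-/- heart and the highest *Col1a2*+/- heart were level to 2 decimals, and heart 3294 was far below the other 5. The means were 15.55 ± 0.05 in *Col1a2*-/- hearts, against 15.17 ± 0.48 in *Col1a2*+/- hearts (SD, n = 3 each). The log2 difference was 0.38 (SE 0.24, interval -0.15 to 0.92, adjusted p = 0.931 by limma), and without heart 3294 it was 0.11.

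*Nrap*, whose product takes part in the assembly of myofibrils at the cell ends, had 14.65, 14.73 and 14.95 in *Col1a2*-/- hearts, against 14.42, 14.49 and 14.75 in *Col1a2*+/- hearts. The genotypes overlapped only through heart 3294, the highest of the *Col1a2*+/- hearts. The log2 difference was 0.22 (SE 0.17, interval -0.17 to 0.61, adjusted p = 0.937 by limma), with 0.27 and 0.33 within the first and the second series and 0.32 without heart 3294. *Mypn*, the gene of myopalladin, which links nebulette to α-actinin, had 10.29, 10.63 and 10.53 in *Col1a2*-/- hearts, against 10.34, 10.54 and 11.08 in *Col1a2*+/- hearts. Its log2 difference of -0.17 turned to 0.045 without heart 3294, which held the highest value. *Pdlim5*, another PDZ-LIM gene, had 17.05, 16.87 and 16.94 in *Col1a2*-/- hearts, against 16.86, 16.97 and 16.68 in *Col1a2*+/- hearts (log2 difference 0.11, interval -0.25 to 0.48, and 0.037 without heart 3294).

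The core of the Z-disc had some of the smallest differences of the 35 genes. They were 0.018 for *Actn2* (α-actinin, which cross-links actin), 0.0077 for *Tcap* (telethonin, which joins the ends of titin), -0.0043 for *Ldb3* (the PDZ-LIM protein cypher) and -0.0013 for *Myoz2* (calsarcin-1, a brake on calcineurin). *Csrp3*, the gene of muscle LIM protein, which is known for a role in stretch responses, had 0.10. The values of *Myoz2* in the 6 hearts spanned 0.09 on the log2 scale, from 18.94 to 18.97 in *Col1a2*-/- hearts and from 18.90 to 18.99 in *Col1a2*+/- hearts.

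The 4 genes of the desmin network, costamere and chaperones were all positive, also after quantile normalization and median centring, with log2 differences of 0.016 to 0.13 and a median of 0.07. None passed, and the sign of *Des*, *Cryab* and *Cmya5* turned when certain single hearts were left out. *Fhl2*, the gene of a LIM protein that binds titin and acts with transcription factors, had 17.76, 17.62 and 17.60 in *Col1a2*-/- hearts, against 17.69, 17.43 and 17.47 in *Col1a2*+/- hearts. Heart 2769 reached into the *Col1a2*-/- range, and the log2 difference of 0.13 (interval -0.23 to 0.49) was -0.0022 within the first series and 0.15 within the second. *Des*, which encodes desmin, had 0.06, *Cryab*, the gene of a small heat shock protein that protects desmin and titin, had 0.016, and *Cmya5*, whose product myospryn lies at the costamere, had 0.07.

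The 5 genes for enzymes and helpers of assembly and turnover were all negative, also after quantile normalization and median centring, with a median log2 difference of -0.07, and none passed. The median was 0.13 within the first series, -0.28 within the second and 0.0082 without heart 3294, in which 4 of the 5 were highest. *Trim63* encodes MuRF1, a ubiquitin ligase that marks sarcomere proteins for breakdown and is known as an atrophy gene. It had 14.06, 14.02 and 13.89 in *Col1a2*-/- hearts, against 13.64, 13.95 and 14.39 in *Col1a2*+/- hearts. The *Col1a2*-/- hearts lay between the extremes of the *Col1a2*+/- hearts, and the log2 difference of -0.0044 (interval -0.48 to 0.47) was 0.40 within the first series, -0.28 within the second and 0.19 without heart 3294. *Trim55*, the gene of the related MuRF2, had 11.61, 11.30 and 11.34 in *Col1a2*-/- hearts, against 11.51, 11.41 and 11.35 in *Col1a2*+/- hearts (log2 difference -0.0062, interval -0.38 to 0.36).

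*Smyd1*, the gene of a muscle methyltransferase that helps myosin fold and assemble, had 15.27, 15.24 and 14.89 in *Col1a2*-/- hearts, against 15.02, 15.23 and 15.59 in *Col1a2*+/- hearts. Heart 3200 was the lowest and heart 3294 the highest of the 6, and both belong to the second series. The log2 difference of -0.15 (interval -0.60 to 0.31) was 0.24 within the first series, -0.53 within the second and 0.0082 without heart 3294. *Unc45b*, the gene of a myosin chaperone, had a log2 difference of -0.09, with 11.51 in heart 3294, against 10.82 to 11.11 in *Col1a2*-/- hearts and 10.74 and 10.91 in the other *Col1a2*+/- hearts. *Mylk3*, which encodes the kinase of the ventricular regulatory light chain, had -0.07.

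**Figure D2:**
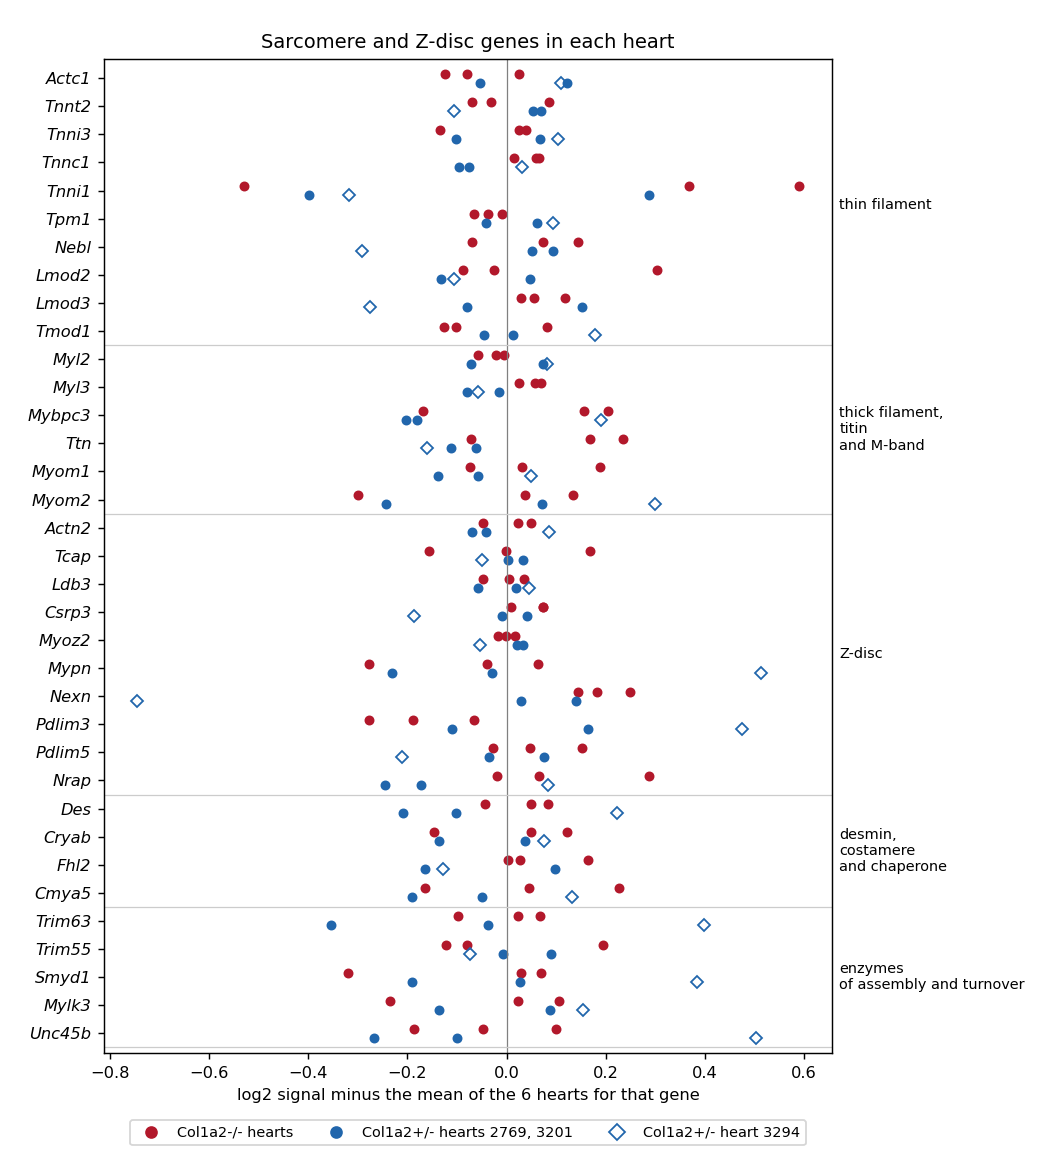
Log2 signal of each of the 35 genes in each heart, minus the mean of the 6 hearts for that gene, with *Col1a2*-/- hearts as red dots above *Col1a2*+/- hearts as blue dots and heart 3294 as an open diamond. The genotypes overlap in all genes except *Myl3* and *Nexn*, and heart 3294 is the highest in 14 genes and the lowest in 8.

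Heart 3294 held the highest or the lowest value in 22 of the 35 genes (62.9%), against 40.3% of all probe sets and 45.5% of those above the limit for dim signals. The other hearts did so in 8 to 12 genes each. Without heart 3294 the differences ran from -0.20 for *Pdlim3* to 0.32 for *Nrap*. The sign turned in 8 genes (*Nebl*, *Myom2*, *Tcap*, *Ldb3*, *Mypn*, *Trim63*, *Smyd1* and *Unc45b*), the value moved by over 1.5 times with the same sign in 19, and it moved by less in 8. The spread between hearts was small all the same, with a median SD within genotypes of 0.13 over the 35 genes, against 0.24 over all probe sets and 0.21 over those above the limit for dim signals. In the top 1% of signals it was 0.10. The median size of the difference between genotypes was 0.10 for the 35 genes, 0.15 for all probe sets and 0.07 for the top 1%. A difference under 0.2 was found for 30 of the 35 genes (85.7%), against 62.6% of all probe sets. The share was 67.0% above the limit for dim signals and 92.8% in the top 1% of signals.

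**Figure D3:**
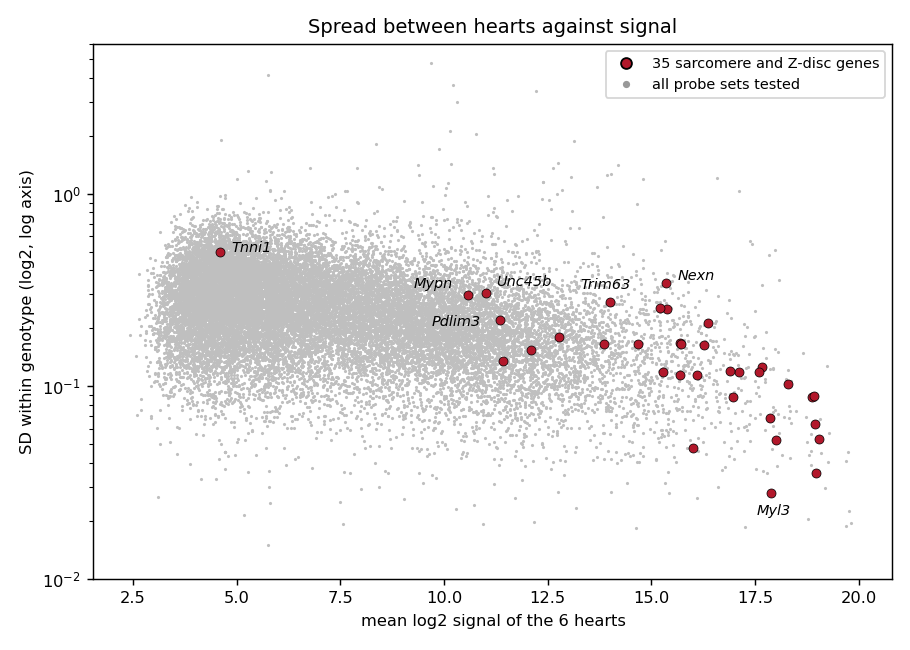
SD of the log2 signal within genotypes (log axis) against the mean log2 signal of the 6 hearts, with the 35 genes as red points over all probe sets tested in gray (2 probe sets with no spread lie off the axis). The spread is lower where the signal is higher, and the 35 genes lie mostly at high signals, with *Tnni1* at a mean of 4.61 as the exception.

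Other sarcomere genes, from a list of 34 of which 33 were measured and 20 lay above the limit for dim signals, included 2 that were higher and 3 that were lower at an unadjusted p under 0.05 by limma, with 28 that did not pass and a median log2 difference of 0.10 (2.67% and 2.79% of all probe sets were higher and lower). None passed after adjustment. Without heart 3294 there were 4 higher, with *Myl4* and *Myl7* added, and 2 lower, with *Tmod4* lost. There were also 4 higher without heart 2769, and *Acta1* alone was higher without heart 3201, 2767 or 2770. *Acta1*, the α-actin gene of skeletal muscle and of the fetal heart, had 14.94, 15.45 and 15.99 in *Col1a2*-/- hearts, against 14.00, 14.41 and 13.96 in *Col1a2*+/- hearts. Every *Col1a2*-/- heart lay above every *Col1a2*+/- heart (log2 difference 1.34, SE 0.27, adjusted p = 0.814 by limma). *Obsl1*, an obscurin-like gene of the M-band, had 7.63, 7.27 and 7.91 in *Col1a2*-/- hearts, against 8.44, 8.67 and 8.01 in *Col1a2*+/- hearts. *Obsl1* was lower in each *Col1a2*-/- heart (-0.77, SE 0.23, adjusted p = 0.872 by limma). *Tmod4*, the skeletal tropomodulin gene, had 10.54, 10.60 and 10.90 in *Col1a2*-/- hearts, against 11.00, 11.20 and 11.07 in *Col1a2*+/- hearts (-0.41, adjusted p = 0.906 by limma). *Acta2* had 14.34, 13.72 and 13.78 in *Col1a2*-/- hearts, against 14.76, 13.93 and 14.79 in *Col1a2*+/- hearts. Its log2 difference of -0.54 did not pass with all hearts (unadjusted p = 0.0776 by limma). Without heart 3201 or without heart 2767 *Acta2* was lower at an unadjusted p under 0.05. The other higher gene, *Mybph*, and the third lower gene, *Tnnc2*, were below the limit for dim signals.

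Other Z-disc and costamere genes, from a list of 41 of which 39 were measured and 34 lay above the limit for dim signals, had 4 that were higher, 0 that were lower and 35 others at an unadjusted p under 0.05 by limma, with a median log2 difference of 0.0039 (2.67% of all probe sets were higher). None passed after adjustment. The count of 4 fell when certain single hearts were left out, which also leaves fewer arrays for the test. It was 1, *Ankrd23* alone, without heart 3294, without heart 2770 or without heart 3200. Of the 4, *Ankrd1* and *Ankrd23* encode ankyrin repeat proteins that bind titin. *Ankrd23* had 14.91, 15.50 and 15.12 in *Col1a2*-/- hearts, against 14.49, 14.21 and 14.52 in *Col1a2*+/- hearts (log2 difference 0.77, SE 0.20, adjusted p = 0.870 by limma). *Ankrd1*, also known as a gene that responds to load, had 17.47, 17.90 and 17.97 in *Col1a2*-/- hearts, against 17.12, 17.46 and 17.05 in *Col1a2*+/- hearts (0.57, SE 0.20, adjusted p = 0.879). In both genes all *Col1a2*-/- hearts were above all *Col1a2*+/- hearts, and within the first and the second series the difference was 0.71 and 0.75 for *Ankrd23* and 0.56 and 0.71 for *Ankrd1*.

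*Xirp2*, the gene of an actin-binding protein of the intercalated disc, had 12.69, 13.11 and 13.24 in *Col1a2*-/- hearts, against 12.44, 12.69 and 11.27 in *Col1a2*+/- hearts. Heart 3294 was far below the rest, as for *Nexn*, and the log2 difference of 0.88 (adjusted p = 0.906 by limma) was 0.45 without it. Without heart 3294, *Ankrd1*, *Xirp2* and *Pdlim2* had log2 differences of 0.49, 0.45 and 0.49 and no longer passed (unadjusted p = 0.0604, 0.0751 and 0.0624 by limma). *Pdlim2*, a further PDZ-LIM gene, had 8.99, 9.45 and 9.01 in *Col1a2*-/- hearts, against 8.87, 8.45 and 8.78 in *Col1a2*+/- hearts (0.45, adjusted p = 0.906). Counts of cell type markers at an unadjusted p under 0.05 are given next, where 2.67% of all probe sets were higher and 2.79% lower. Among markers of other cells, 4 of 9 fibroblast genes were higher (*Col1a1*, *Col3a1*, *Mfap5* and *Postn*). *Tcf21*, *Gsn* and *Dcn* had negative differences (-0.42, -0.27 and -0.042) that did not pass. The mean of the fibroblast list was 12.16 to 12.37 in *Col1a2*-/- hearts and 11.88 to 12.03 in *Col1a2*+/- hearts. Of 9 macrophage markers 2 were higher and 8 positive (median log2 difference 0.24, list mean 9.69 to 10.03 in *Col1a2*-/- hearts and 9.50 to 9.69 in *Col1a2*+/- hearts). Of 10 smooth muscle and pericyte markers 2 were higher and 8 positive (median 0.23, list mean 10.17 to 10.34 in *Col1a2*-/- hearts and 9.87 to 10.21 in *Col1a2*+/- hearts). The other 2 were negative, and the lowest was *Acta2* (-0.54), which did not pass with all hearts. With all hearts, none of the endothelial, atrial and skeletal muscle markers passed, and 1 fat and 1 blood cell marker was lower. The atrial result depended on single hearts. Without heart 3294, in which 9 of 10 atrial markers were highest, 5 were higher (*Dkk3*, *Myl4*, *Myl7*, *Nppa* and *Sln*). The median log2 difference of the atrial list was then 0.99, against 0.059 with all hearts. Without heart 2769, 2 atrial markers were lower (*Kcnj3* and *Tbx5*). Of the 15 cardiomyocyte markers, 0 were higher and 1 was lower with all hearts. Their log2 differences were positive in 5 and negative in 10, with a median of -0.044. All *Col1a2*-/- hearts lay below all *Col1a2*+/- hearts in 3 of these markers and above them in 1. The shares of all probe sets were 5.47% and 5.13%. The part of RNA of these other cells in the differences of *Ankrd1*, *Ankrd23*, *Xirp2* and *Pdlim2* was not tested.

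**Figure D4:**
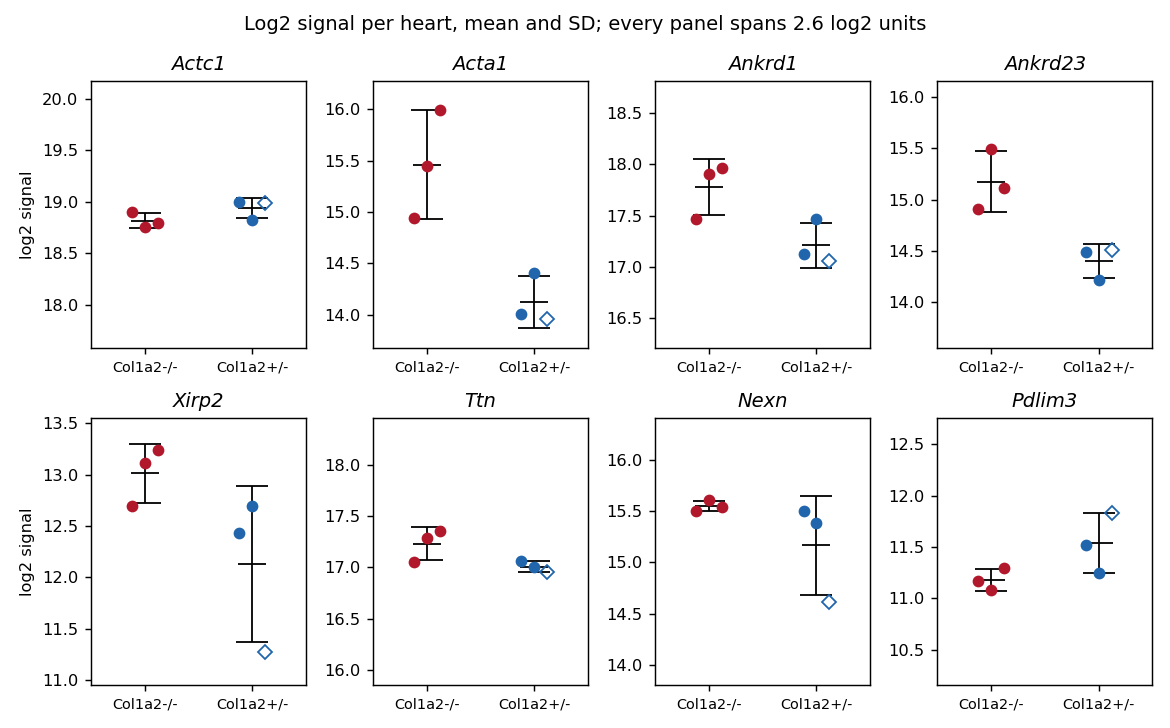
Log2 signal per heart of *Actc1*, *Ttn*, *Nexn* and *Pdlim3* from the 35 genes and of *Acta1*, *Ankrd1*, *Ankrd23* and *Xirp2* from the other lists, with *Col1a2*-/- hearts in red, *Col1a2*+/- hearts in blue and heart 3294 as an open diamond (bars are mean and SD, 3 hearts per genotype). Every panel spans the same width of 2.6 log2 units, and the genotypes are separate for *Acta1* (log2 difference 1.34) and overlap for *Actc1* (-0.12).

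Pairs of related forms were then compared within each array, as the log2 signal of one gene minus that of its partner, to ask whether both moved unequally between genotypes. The exact permutation test over 3 against 3 hearts cannot give a two-sided p below 0.1, and 7 pairs were tested. The pair of *Acta1* and *Actc1* had -3.96, -3.30 and -2.80 in *Col1a2*-/- hearts, against -5.00, -4.41 and -5.03 in *Col1a2*+/- hearts. The ranges were separate, and the change of the pair was 1.46 on the log2 scale (exact p = 0.1, 0.7 after adjustment over the 7 pairs), with 1.36 within the first series and 1.92 within the second. The skeletal form was thus higher in relation to the cardiac form by a factor of 2.75, while signals of different probe sets say nothing on their relative amounts.

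The other 6 pairs overlapped between genotypes. The pair of the β- and α-myosin heavy chain genes *Myh7* and *Myh6* differed by 0.32 (exact p = 0.3), with -3.49 ± 0.36 in *Col1a2*-/- hearts, against -3.81 ± 0.25 in *Col1a2*+/- hearts (SD, n = 3 each). *Tnni1* against *Tnni3* differed by 0.33 (exact p = 0.6), with -0.14 within the first series and 0.70 within the second. The atrial and ventricular light chain pairs, *Myl7* against *Myl2* and *Myl4* against *Myl3*, differed by 0.74 and 0.51 (exact p = 0.8 for each), and heart 3294 had the highest value of both, -5.56 and -2.20. In both pairs the genotypes overlapped only through heart 3294. Without heart 3294 the differences were larger, with 2.24 for the first pair, and without heart 3201 both turned sign, to -0.39 and -0.58. *Lmod3* against *Lmod2* differed by 0.0079 (exact p = 0.9) and *Trim63* against *Trim55* by 0.0018 (exact p = 1.0). After adjustment over the 7 pairs, the exact p of these 6 was 1.0.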

How the data were processed

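RNA of 6 hearts, 3 per genotype, was measured on Affymetrix Clariom S Mouse arrays after Trizol extraction and labeling with a Pico kit. The authors deposited 1 log2 signal for each probe set and array, normalized with Affymetrix Expression Console, as the submission names it, or Transcriptome Analysis Console, as the methods do. Versions and normalization are not given in the sources used here. Array medians lay between 6.64 and 6.67 (log2), and the number of arrays limits the precision.

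Of 28846 entries, 6640 controls were left out and 22206 probe sets were tested, of which 19572 carry a symbol in the platform annotation. The dim limit was the 95th percentile of 1452 probe sets for smell, pheromone and taste receptors. *Col1a2*-/- minus *Col1a2*+/- was fitted with lmFit and eBayes of limma 3.58.1 in R 4.3.3, without covariates (4 residual degrees of freedom for each probe set), with Benjamini-Hochberg adjustment over all probe sets. Genotypes came from the labels. The 35 genes, their role groups and the other lists were chosen with earlier results of these data known. Values per heart were given for the 12 members with the smallest p and for *Tnni1*, *Tnni3*, *Ttn*, *Actc1*, *Myl2*, *Trim63* and *Trim55*, and in each other list for up to 4 genes above the dim limit with the smallest p. Exact permutation tests used scipy 1.17.1, and figures matplotlib 3.10.9. Code was tested on simulated data. Alternatives were quantile normalization, median centring, a filter on dim probe sets, a trend and robust prior and a t-test. The methods name the t-test for pairs of groups in general, and Transcriptome Analysis Console and iPathwayGuide for the arrays. Further alternatives were array weights, the animal number series as a block, the mean of probe sets per gene and leaving out each heart. After the data were seen, hearts were also left out for the counts in the other sarcomere, Z-disc and cell type marker lists.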

Additional observations from a re-analysis of the deposited data

How the results depend on the processing

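None of the 35 genes passed after adjustment under any alternative run. At an unadjusted p under 0.05 the count of genes was 1 in place of 0 with a trend and robust prior (*Ttn*). It was also 1 with the t-test (*Myl3*). Leaving out single hearts gave 0 to 1, with *Pdlim3* without *Col1a2*+/- heart 3201 and *Tnni1* without *Col1a2*-/- heart 2767. The count of genes without overlap, 2 with all hearts, lay between 2 and 10 when a heart was left out, which leaves fewer hearts to overlap (10 without heart 3201). The pair *Lmod3* against *Lmod2* moved to -0.22 within the second series, and *Trim63* against *Trim55* to 0.45 within the first. Leaving out hearts, an alternative added after seeing the data, gave 1 to 4 other sarcomere genes that were higher and 2 to 4 that were lower, and 1 to 5 and 0 other Z-disc and costamere genes. Of 271 alternative values for 17 named genes, 17 turned in sign. Of these, 6 were values within a series of animal numbers, as far as 0.40 for *Trim63*, 0.24 for *Smyd1* and -0.26 for *Tnni1*, and 11 came from other alternatives. Leaving out hearts, the range was -0.33 to 0.045 for *Mypn*, -0.28 to 0.0082 for *Smyd1*, -0.11 to 0.0082 for *Tnni3*, -0.18 to 0.19 for *Trim63* and -0.10 to 0.053 for *Trim55*. *Tnni3* was 0.016 with quantile normalization, and *Trim63* was 0.036 with array weights and 0.061 with the series as a block. The cause of these turns was not tested. The study states that it compared littermates of the same age. No paired analysis was run, because the labels do not say which hearts were littermates. The number of hearts limits what size of change could be seen, and whether signals near the end of the scale do so was not tested.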
